A study of Bos taurus with 4 samples.

Results

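The genes described here are those of the autophagy and mitophagy machinery, measured in the semitendinosus muscle, a hindlimb muscle, of bulls from a beef breed, Hereford (HER), and a dairy breed, Holstein-Friesian (HF). A list of 50 bovine gene symbols was used, and a gene was counted as measured where the accession of at least 1 array probe belonged to its symbol. This was so for 41 of the 50 genes, out of 11054 genes with a named probe on the array. The 41 genes had 112 probes, of which 5 were too dim to be tested, and each of the 41 genes kept at least 1 tested probe. No probe was matched by accession to the other 9 symbols, *ULK1*, *ULK2*, *AMBRA1*, *ATG2A*, *ATG2B*, *ATG16L1*, *EPG5*, *TFEB* and *TECPR1*, so their expression was not analysed here. The genes were sorted by role into initiation, with 12 of 17 genes measured, conjugation, with 14 of 15, cargo and mitophagy receptors, with 10 of 10, and lysosome fusion and its regulators, with 5 of 8.

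Macroautophagy is the route by which a cell encloses part of its own cytoplasm in a double membrane, the autophagosome, and delivers it to the lysosome for breakdown. A kinase complex and a lipid kinase complex start the membrane, and enzymes related to those of ubiquitin conjugation then attach small proteins of the ATG8 family (the LC3 and GABARAP proteins) to it. Receptors bind both cargo and ATG8 proteins, and in mitophagy the cargo is mitochondria. In skeletal muscle the route removes worn organelles and protein, and several of its genes are known targets of FOXO transcription factors during fasting and muscle loss.

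Each of the 4 dual-colour arrays held muscle RNA of 1 HER bull and of 1 HF bull, so there were 4 bulls per breed, all 15 months old, and the 4 arrays lay on 1 slide. The labels name no treatment or genetic alteration in either breed. The labels give HER as the Cy3 sample and HF as the Cy5 sample on all 4 arrays, but they also carry a remark that dyes were exchanged so that HF served as the reference. Values are therefore given as log2(Cy5/Cy3), and "higher" or "lower" below refers to the Cy5 sample. Read with the dye labels a positive value is a higher expression in HF, whereas the study's published list of breed differences runs the other way. There *TRIM63*, positive on the scale used here, is listed as higher in HER. *MSTN*, negative here, was reported as lower in HER than in HF, also by qPCR and, for the protein, by Western blot. The labels thus did not settle the breed behind each sign. Because all arrays had the same dye orientation, a difference between breeds and a difference between dyes cannot be told apart in these array data.

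Median Cy5 signals of the 4 arrays ranged from 129 to 160.5 and median Cy3 signals from 77 to 138, against a local background of 37 to 41. All 8 markers of skeletal muscle measured were well above background in both channels of every array. The genes described here were mostly well expressed, since 39 of the 41 were well above background in both channels on all 4 arrays, the exceptions being *ATG14* and *UVRAG* in the Cy3 channel, and none had a saturated spot. No comparison of level between genes is made, because the signals of different probes are not comparable.

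With each gene represented by its brightest tested probe, 4 of the 41 genes differed between the channels at an adjusted p under 0.05 (limma, Benjamini-Hochberg over 32608 probes). *MAP1LC3B* and *BNIP3* were higher, by 2.05-fold and 2.23-fold, and *ATG4A* and *OPTN* were lower, by 2.42-fold and 1.40-fold. This was 9.76% of the genes, with 4.46% called among all 9426 genes tested (2.92% higher and 1.54% lower). The other 37 genes did not pass, and 13 of the 41 had an unadjusted p under 0.05 (31.7%, with 28.3% of all genes tested). The log2 ratios of the 41 genes ran from −1.27 to 1.16 around a median of 0.09 (0.02 over all genes tested), with 23 above 0 and 18 below. The split by direction depended on the scaling. When the ratios were only centred on the median of each array, without the loess correction for signal-dependent dye differences, 28 genes were called higher and 1 lower, and 14 genes with a negative mean turned positive. That setting moved the median of all genes to 0.43 and of these genes to 0.68, and called 45.0% of all genes.

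Each of the 4 genes called had 1 sign on all 4 arrays, so leaving out 1 array could not move its mean log2 ratio across 0. The sign changed in 4, 3, 2 and 3 of the 41 genes without arrays 1, 2, 3 and 4. *ATG4A* ranged from −1.36 to −1.22, *BNIP3* from 1.04 to 1.33, *MAP1LC3B* from 0.87 to 1.18, *OPTN* from −0.53 to −0.45 and *GABARAPL1* from 0.76 to 1.21. With 3 arrays few probes of any kind passed, 96, 38, 5 and 5 of the whole array without arrays 1, 2, 3 and 4, against 1083 with all. Of the 41 genes, *ATG4A* was called without array 1 (limma, 18 at an unadjusted p under 0.05) and none without array 2, 3 or 4 (limma, 10 to 13 at an unadjusted p under 0.05).

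**Figure D1:**
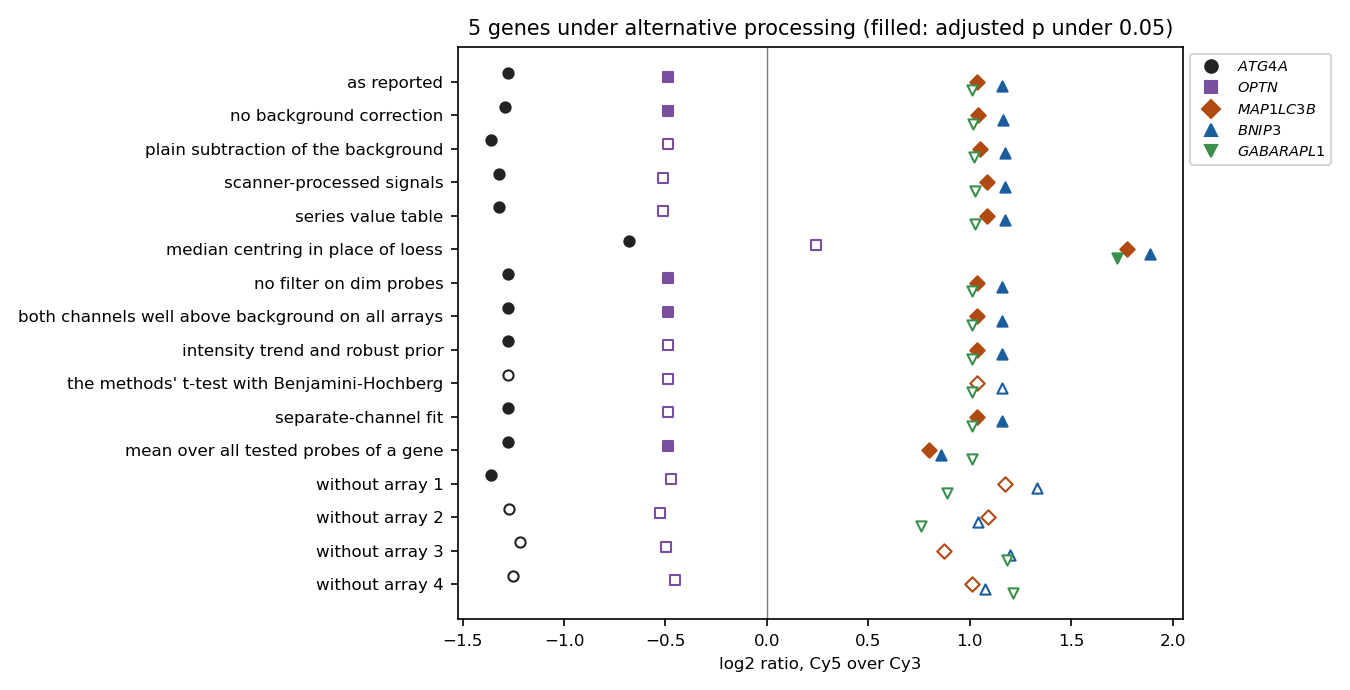
Log2 ratio of Cy5 over Cy3 (x axis) of 5 genes as reported and under alternative processing, including each array left out. Filled symbols have an adjusted p under 0.05. Under median centring all 5 genes move to the right and *OPTN* crosses 0, and with 1 array left out only *ATG4A* without array 1 stays filled.

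Of the 41 genes, 19 had the same sign on all 4 arrays, 12 above 0 and 7 below (46.3%). Of all genes tested 34.2% had 1 sign, 20.4% above 0 and 13.8% below. The single arrays gave 22, 24, 22 and 26 genes above 0 on arrays 1 to 4, with medians of 0.02, 0.18, 0.14 and 0.14. The log2 ratios of the 41 genes correlated between pairs of arrays with Pearson's r of 0.54 to 0.74. Over all tested probes r was 0.33 to 0.62. The first range used only the brightest probe of each gene and the second every tested probe, so they are not like for like. Both are descriptions across probes or genes, which are not replicates. The spread of a gene over the arrays was like that of other genes, with a median SD of 0.22 against 0.23.

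**Figure D2:**
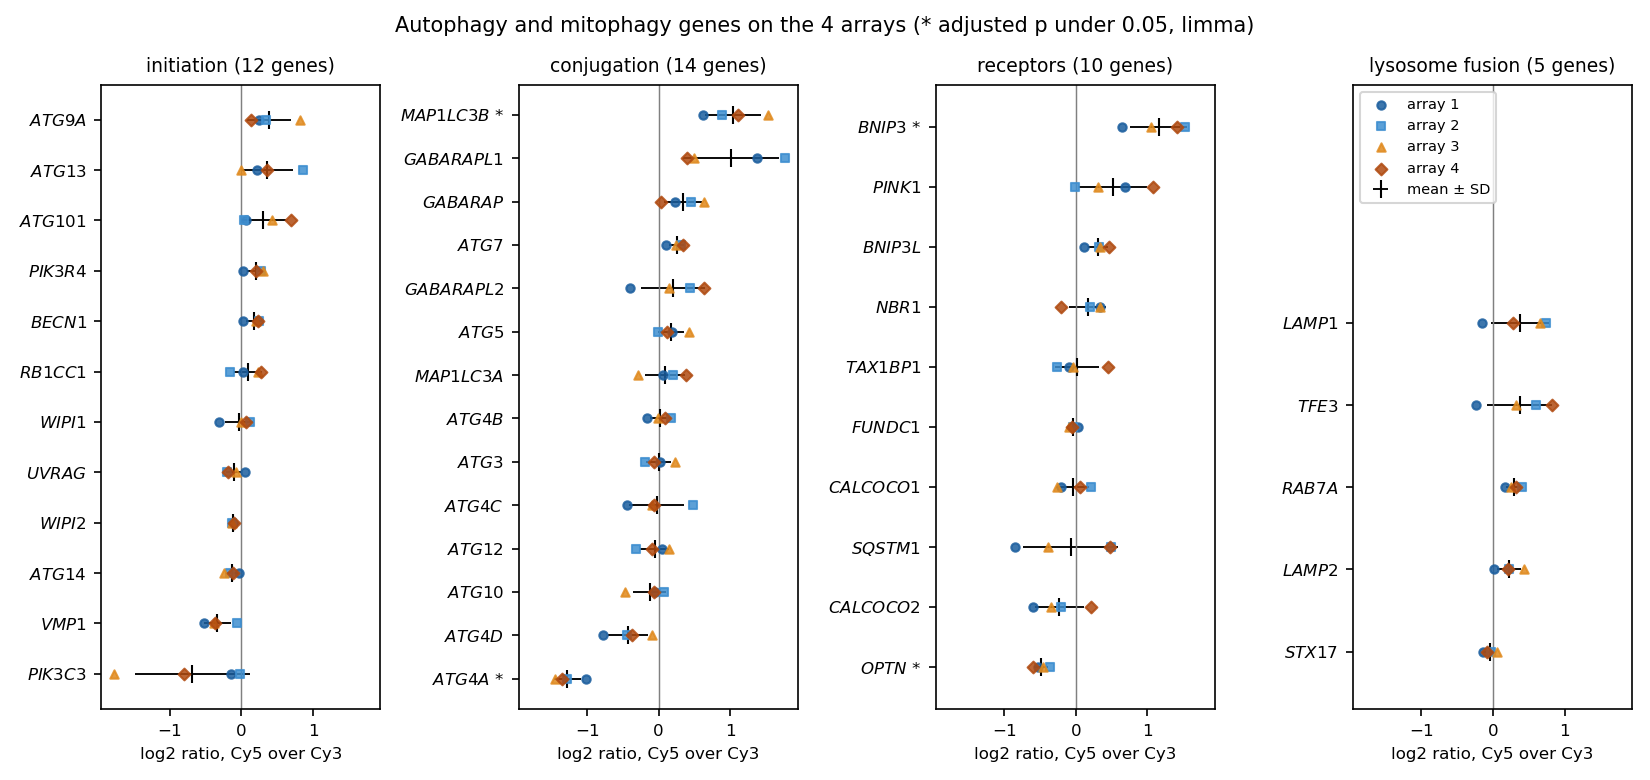
Log2 ratio of Cy5 over Cy3 (x axis) of the 41 measured genes, by role. Coloured points are the 4 arrays, each with 1 HER and 1 HF bull, and the black tick and line are the mean ± SD. Asterisks mark an adjusted p under 0.05 (limma). The points of *ATG4A* lie below −1 on every array, those of *MAP1LC3B* and *BNIP3* lie above 0.6, and most other genes lie within 0.5 of 0.

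Among the initiation genes none of the 12 passed the test (limma, 2 at an unadjusted p under 0.05), and their median log2 ratio was 0.03. The components of the kinase complex had small differences: *ATG13*, its regulatory subunit, gave 0.21, 0.86, 0.00 and 0.35 on arrays 1 to 4, with a mean of 0.36 ± 0.36 (SD, n = 4; adjusted p = 0.211, limma), and *ATG101*, which stabilizes ATG13, had 0.30 ± 0.32. *RB1CC1*, the scaffold of the complex, had 0.09 ± 0.20, while its second probe gave −0.21. Other probes of *ATG13* gave 0.36 and −0.00067. *ATG9A*, the membrane protein of the vesicles that seed the autophagosome, was above 0 on every array (0.24, 0.34, 0.82 and 0.14 on arrays 1 to 4; mean 0.38, adjusted p = 0.139, limma). Its other 2 probes gave 0.03 and 0.05.

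The lipid kinase complex that makes phosphatidylinositol 3-phosphate is built from *PIK3C3*, its catalytic subunit, with *PIK3R4*, *BECN1* and either *ATG14* or *UVRAG*. The log2 ratios of *PIK3C3* were −0.14, −0.02, −1.78 and −0.81 on arrays 1 to 4. They were all below 0 but spread widely, with array 3 far below arrays 1 and 2. Its mean was −0.69 ± 0.80 (adjusted p = 0.223, limma), and its other 3 probes gave −0.15 to −0.18. *PIK3R4* had 0.20 ± 0.13 and *BECN1* 0.18 ± 0.11 with the brightest probe, both above 0 on all arrays and neither passing the test. The other probes of *PIK3R4* had the opposite sign, at −0.12, −0.02 and −0.11, whereas those of *BECN1* gave 0.15 and 0.12. The 2 probes of *ATG14* had opposite signs, each on all 4 arrays, at −0.14 and 0.19.

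*VMP1*, an endoplasmic reticulum protein needed for the membrane to form and detach, was below 0 in all of its 3 probes. The brightest gave −0.52, −0.07, −0.39 and −0.36 on arrays 1 to 4, with a mean of −0.34 ± 0.19 (adjusted p = 0.109, limma). The dimmest, chosen here because it passed, gave −0.38, −0.58, −0.47 and −0.70, a mean of −0.54 (adjusted p = 0.0419, limma). Of the phosphoinositide-binding proteins, *WIPI1* had −0.04 ± 0.20. *WIPI2* was close to the same value on every array, −0.12 ± 0.02, while its second probe gave 0.27.

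The conjugation group held the lowest ratio of all and the second highest. *ATG4A* encodes a cysteine protease that trims ATG8 proteins before they are attached to lipid and releases them afterwards. Its normalized log2 signal on arrays 1 to 4 was 9.41, 9.59, 9.60 and 9.44 in Cy5 and 10.43, 10.87, 11.05 and 10.79 in Cy3. Every Cy5 sample was below every Cy3 sample, and the Cy5 samples lay close together. The log2 ratios were −1.02, −1.28, −1.45 and −1.35, a mean of −1.27 ± 0.19 (95% interval −1.51 to −1.04; adjusted p = 0.0139, limma). The gene had 1 probe on the array, so no second probe bears on this value.

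The other proteases of this family did not share the size of that difference. *ATG4B* had a log2 ratio of 0.02 ± 0.14 and *ATG4C* of −0.03 ± 0.38. *ATG4D* was below 0 on every array in each of its 4 probes, with means of −0.27 to −0.51, and its brightest probe gave −0.78, −0.45, −0.10 and −0.37 (mean −0.42, adjusted p = 0.106, limma). Within an array, *ATG4A* was lower than *ATG4D* by 0.85 ± 0.46, lower than *ATG4B* by 1.3 ± 0.30 and lower than *ATG4C* by 1.25 ± 0.50 on the scale of log2 ratios, in each case on 4 of 4 arrays. These differences between genes are descriptions and were given no test.

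The 5 measured genes of the ATG8 family, the proteins that coat the autophagosome, had positive mean ratios. *MAP1LC3B*, which encodes the LC3B protein widely used as a marker of autophagosomes, had normalized log2 signals of 12.98, 13.39, 14.02 and 13.78 in Cy5 and 12.36, 12.50, 12.49 and 12.67 in Cy3 on arrays 1 to 4. The Cy5 samples were all above the Cy3 samples, and the Cy5 samples were the more variable. The log2 ratios were 0.63, 0.88, 1.53 and 1.11, with a mean of 1.04 ± 0.39 (95% interval 0.66 to 1.42; adjusted p = 0.0377, limma). Its second probe was above 0 on all arrays too but at a mean of 0.56, and did not pass (adjusted p = 0.101, limma).

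*GABARAPL1*, another ATG8 gene and like *MAP1LC3B* a known FOXO target in muscle, had log2 ratios of 1.38, 1.76, 0.49 and 0.40 on arrays 1 to 4. All were above 0, but arrays 1 and 2 were far higher than arrays 3 and 4. Its mean of 1.01 ± 0.67 was as large as that of *MAP1LC3B* and did not pass (95% interval 0.40 to 1.62; adjusted p = 0.0790, limma). Its 3 probes gave 1.01, 1.03 and 1.00, and each put arrays 1 and 2 above arrays 3 and 4. *MAP1LC3B* ran in another order, highest on arrays 3 and 4, so that the difference of the 2 genes was −0.75 and −0.88 on arrays 1 and 2 and 1.04 and 0.71 on arrays 3 and 4.

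*GABARAP*, which acts in later steps of autophagosome maturation, gave 0.23, 0.46, 0.63 and 0.04 on arrays 1 to 4, all above 0, with a mean of 0.34 ± 0.26 (adjusted p = 0.147, limma), and its other 2 probes gave 0.37 and 0.41. *GABARAPL2* gave −0.40, 0.44, 0.14 and 0.63, with array 1 below 0 and the others above (mean 0.20 ± 0.45). *MAP1LC3A* gave 0.06, 0.20, −0.28 and 0.39, with array 3 below 0 (mean 0.09 ± 0.28), and its second probe gave −0.02. By the brightest probes *MAP1LC3B* was above *MAP1LC3A* by 0.95 ± 0.58 on the log2 ratio scale, on 4 of 4 arrays. The second probe of *MAP1LC3B* had a smaller mean, of 0.56.

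The enzymes that activate and attach the ATG8 proteins were nearly level. *ATG7*, the activating enzyme, was above 0 on every array at 0.25 ± 0.11 (adjusted p = 0.131, limma), and its Cy5 signals were all above its Cy3 signals. *ATG3*, the enzyme that carries ATG8 proteins to lipid, had 0.00 ± 0.18. *ATG5* and *ATG12*, which together form the conjugate that directs attachment, had 0.18 ± 0.18 and −0.05 ± 0.20, and *ATG10*, the enzyme that joins them, had −0.13 ± 0.24. Probes of *ATG5* and *ATG12* differed in sign, with 0.05 and −0.16 in the others of *ATG5* and 0.05 in the second of *ATG12*.

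**Figure D3:**
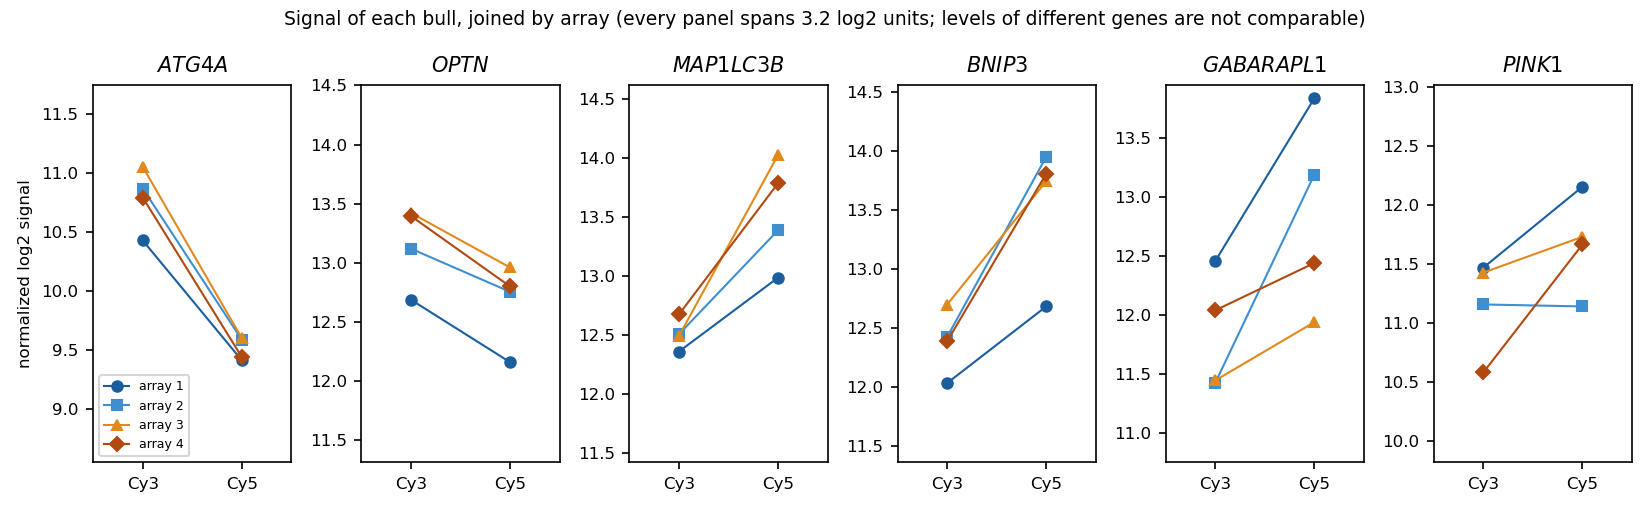
Normalized log2 signal (y axis) of 6 genes in the Cy3 and Cy5 sample of each array, joined by array. Panels span equal ranges but start at different levels. All 4 lines of *ATG4A* and *OPTN* fall from Cy3 to Cy5 and all of *MAP1LC3B*, *BNIP3* and *GABARAPL1* rise, while for *PINK1* array 2 is level.

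Among the 10 receptors, *BNIP3* was higher and *OPTN* lower. *BNIP3* encodes a receptor of the outer mitochondrial membrane that binds ATG8 proteins and is known as a target of hypoxia-inducible and FOXO factors. Its normalized log2 signals on arrays 1 to 4 were 12.69, 13.95, 13.75 and 13.81 in Cy5 and 12.04, 12.43, 12.70 and 12.39 in Cy3. Array 1 was the lowest in both channels, and its Cy5 sample fell just below the highest Cy3 sample, so the groups touched. The log2 ratios were 0.65, 1.53, 1.05 and 1.42, a mean of 1.16 ± 0.40 (95% interval 0.77 to 1.55; adjusted p = 0.0332, limma). Its second probe gave 0.51, 0.83, 0.33 and 0.54, a mean of 0.55 that just missed the threshold (adjusted p = 0.0507, limma).

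*BNIP3L*, the closely related receptor (also called NIX) that clears mitochondria from maturing red cells, had smaller ratios of 0.11, 0.33, 0.33 and 0.47 on arrays 1 to 4. All were above 0, and the mean of 0.31 ± 0.15 did not pass (adjusted p = 0.102, limma). By its brightest probe *BNIP3* was above *BNIP3L* within an array by 0.85 ± 0.29 on the log2 ratio scale, on 4 of 4 arrays. The second probe of *BNIP3* was closer to *BNIP3L*, with a mean of 0.55 and a value of 0.33 on array 3, where *BNIP3L* also gave 0.33. *FUNDC1*, another receptor of the outer mitochondrial membrane, gave 0.03, −0.04, −0.09 and −0.05, all close to 0, with a mean of −0.04 ± 0.05 and a 95% interval of −0.22 to 0.14 (adjusted p = 0.788, limma).

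*OPTN* encodes optineurin, a receptor that binds ubiquitin on damaged mitochondria. Its normalized log2 signals were 12.16, 12.75, 12.96 and 12.80 in Cy5 and 12.69, 13.12, 13.42 and 13.39 in Cy3 on arrays 1 to 4. The channels overlapped because array 1 was low in both, yet the Cy5 sample was below its Cy3 partner on every array. The log2 ratios of −0.53, −0.37, −0.46 and −0.60 had a mean of −0.49 ± 0.10 (95% interval −0.68 to −0.29; adjusted p = 0.0420, limma). The call was lost under plain background subtraction (adjusted p = 0.0763, limma), with the scanner's processed signals (adjusted p = 0.0803, limma), with a prior that followed signal intensity (adjusted p = 0.0571, limma) and in a fit of the separate channels (adjusted p = 0.113, limma), at means of −0.49 to −0.51. The gene had a single tested probe. Under median centring the value was 0.24, below the shift of 0.43 over all genes.

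*PINK1*, the kinase that marks damaged mitochondria for removal, gave 0.69, −0.02, 0.30 and 1.08 on arrays 1 to 4. Array 2 was below 0 in each of its 3 probes. The mean of 0.51 ± 0.48 did not pass (adjusted p = 0.159, limma), and the other probes gave 0.20 and 0.42.

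The ubiquitin-binding receptors did not move together. *SQSTM1*, which encodes p62, gave −0.86, 0.49, −0.40 and 0.48 with its brightest probe, so that arrays 1 and 3 opposed arrays 2 and 4 (mean −0.07 ± 0.67). Its other 2 probes gave 0.15 ± 0.04 and 0.08 ± 0.04, above 0 on all arrays and with little spread. *NBR1* had 0.17 ± 0.26, *TAX1BP1* 0.01 ± 0.31 and *CALCOCO2*, the NDP52 gene, −0.23 ± 0.34. The brightest probe of *CALCOCO1* gave −0.05 ± 0.22, whereas its second probe passed the test at 0.46, 0.38, 0.53 and 0.62 on arrays 1 to 4, with a mean of 0.50 (adjusted p = 0.0419, limma).

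The 5 measured genes of lysosome fusion had a median log2 ratio of 0.29, and none passed (limma, 1 at an unadjusted p under 0.05). *RAB7A*, the small GTPase of late endosomes, was above 0 on every array in all 3 probes, and its brightest gave 0.17, 0.40, 0.25 and 0.33 (mean 0.29 ± 0.10, adjusted p = 0.0978, limma). *LAMP2*, a membrane protein of the lysosome needed for fusion and for chaperone-mediated uptake, gave 0.02, 0.22, 0.43 and 0.21 with its brightest probe. Its mean of 0.22 ± 0.17 did not pass (adjusted p = 0.217, limma), and its other 2 probes, 1 of them for a different transcript accession, gave larger means of 0.46 and 0.54. *LAMP1*, its abundant relative, gave −0.16, 0.74, 0.65 and 0.28, with array 1 below 0 (mean 0.38 ± 0.41, adjusted p = 0.224, limma). *STX17*, the SNARE protein of the completed autophagosome, had −0.05 ± 0.09, and *TFE3*, a transcription factor of lysosomal genes, had 0.37 ± 0.46.

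Counting all tested probes of the 41 genes, 6 passed the test, 3 higher and 3 lower (5.61%). Of all probes 3.32% passed, 1.97% higher and 1.35% lower. The 6 called probes belonged to 6 genes, the 4 named above and *CALCOCO1* and *VMP1*, and 5.8% of all genes had at least 1 called probe. Of the 36 genes with several tested probes, 22 had the same sign in all of them (61.1%, against 67.6% of all such genes), and the median range between probes of 1 gene was 0.22 against 0.17. The Cy5 and Cy3 signals did not overlap in 6 of the 41 genes (14.6%), and in 15.9% of all genes tested, 9.41% with Cy5 above and 6.47% with Cy5 below. *MAP1LC3B* and *ATG7* were the higher of these, and *ATG4A*, *ATG4D*, *VMP1* and *ATG14* the lower. By the looser threshold of the methods, which takes the p without adjustment up to 0.05 and asks for a fold of 1.3 or more, 5 genes were higher and 3 lower by limma (19.5%). Of all genes 17.8% passed it, 10.6% higher and 7.18% lower.

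**Figure D4:**
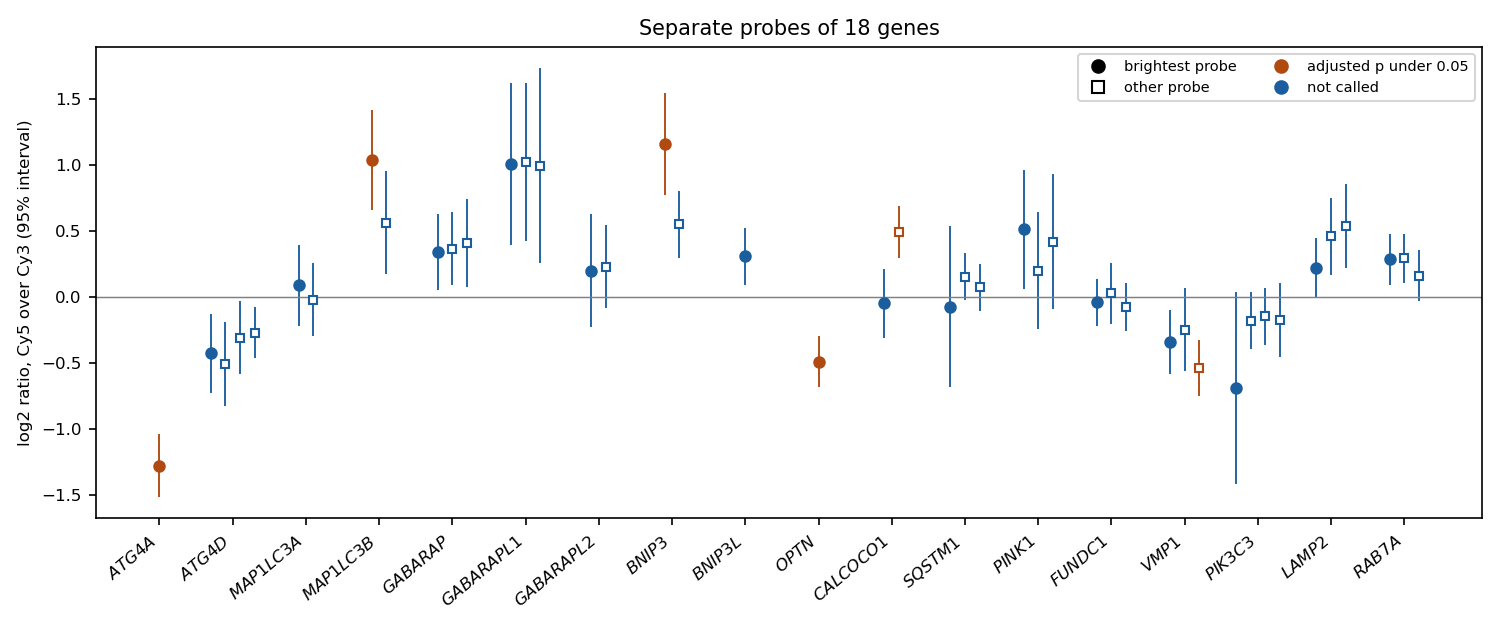
Mean log2 ratio of Cy5 over Cy3 (y axis) with its 95% interval for each tested probe of 18 genes. Filled circles are the brightest probe and open squares the others, and orange marks an adjusted p under 0.05 (limma). The 3 probes of *GABARAPL1* and the 4 of *ATG4D* lie together, while those of *BNIP3*, *MAP1LC3B*, *CALCOCO1* and *PIK3C3* lie apart.

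In 6 groups of genes around this machinery 5 of 126 genes passed (3.97%, with 4.46% of all genes tested). *FIS1*, which did not pass, was counted both with the further autophagy genes and with the mitochondrial genes. Of 30 further autophagy genes measured, 1 passed: *DEPP1*, a FOXO-regulated gene, at 0.71 ± 0.27 (adjusted p = 0.0437, limma). *MTMR3*, a phosphatase that removes phosphatidylinositol 3-phosphate, had 0.51 ± 0.19 (adjusted p = 0.0528, limma), and *RUBCNL* had −1.35 ± 0.74. The median of these 30 genes was 0.17. Of 33 lysosomal hydrolases and membrane proteins 1 passed, *GLB1*, the lysosomal beta-galactosidase, at 0.62 ± 0.22 (adjusted p = 0.0441, limma), with a median of 0.09. None of the 18 subunits of the vacuolar ATPase, the proton pump of the lysosome, passed (limma, 3 at an unadjusted p under 0.05), and their median was 0.04, with the smallest p in *ATP6V0D1* at 0.38 ± 0.16 (adjusted p = 0.0755, limma).

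None of the 24 measured upstream kinases and regulators passed (limma, 7 at an unadjusted p under 0.05). Those with the smallest p were *AKT1S1*, an inhibitory subunit of the mTORC1 kinase complex, at −0.74 ± 0.34 (adjusted p = 0.0519, limma) and *DDIT4*, a stress-induced inhibitor of mTORC1, at 1.29 ± 0.76 (adjusted p = 0.0619, limma). Among 6 atrophy genes *KLF15*, a glucocorticoid-induced transcription factor of muscle, was higher at 1.72 ± 0.45 (adjusted p = 0.0233, limma), and *MSTN*, the inhibitor of muscle growth, was lower at −1.05 ± 0.47 (adjusted p = 0.0449, limma). *TRIM63*, the MuRF1 ubiquitin ligase, gave 1.79, 1.93, 0.66 and 0.71 on arrays 1 to 4 and did not pass (adjusted p = 0.0558, limma). Its arrays 1 and 2 were above arrays 3 and 4, as in *GABARAPL1*. *FBXO32*, of the same list, had the opposite order, with −0.38, −1.03, 0.78 and 0.97 (mean 0.09, adjusted p = 0.910, limma). Of 15 genes of mitochondrial dynamics and biogenesis 1 passed, *ESRRA*, a nuclear receptor that drives mitochondrial genes, at −1.0 ± 0.47 (adjusted p = 0.0486, limma), and the median of the group was −0.14.

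**Figure D5:**
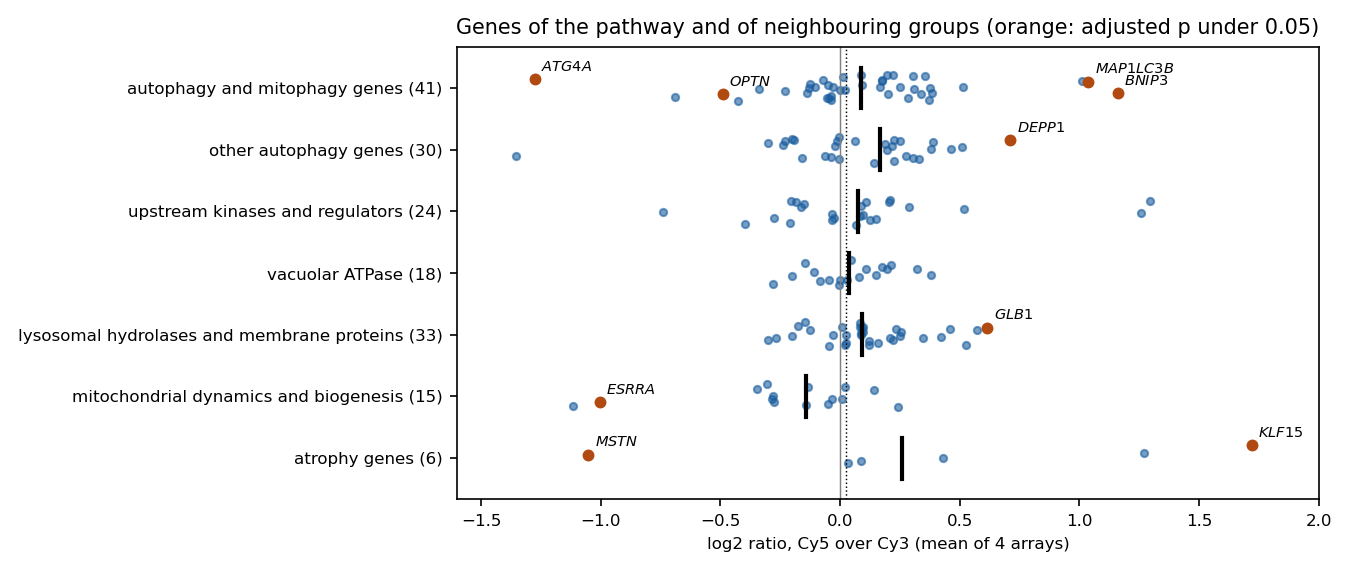
Mean log2 ratio of Cy5 over Cy3 (x axis) of each gene in the autophagy and mitophagy set and in 6 neighbouring groups, with the number measured in parentheses. Black bars are group medians, the dotted line is the median of all genes tested, and orange points have an adjusted p under 0.05 (limma). Most genes lie between −0.5 and 0.5, and no group has more than 4 called genes.

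Muscle tissue holds several cell types, and in bulk RNA fewer cells of a type and less RNA per cell cannot be told apart. None of the 6 macrophage markers passed (limma, 3 at an unadjusted p under 0.05). Their summed signal was higher in Cy5, at 2224 to 3402, than in Cy3, at 1756 to 2144. Single macrophage markers differed in direction, with 4 means positive and 2 negative, *CD14* at −0.04 ± 0.16 and *ITGAM* at −0.06 ± 0.03. The summed signal of the 8 muscle markers was 1529730 to 1737660 in Cy5 and 1347640 to 1501600 in Cy3, also without overlap, and none passed (limma, 3 at an unadjusted p under 0.05). Their means were positive in 7 and negative in 1, *TNNT3*, which was below 0 on every array at −0.69 ± 0.38. How often sums over other genes lack overlap was not computed. The summed signals of the endothelial, adipocyte, fibroblast and blood markers overlapped between the channels. In these lists *COL1A1*, a collagen of fibroblasts, was the 1 marker to pass, at −2.05 ± 0.67 (adjusted p = 0.0290, limma). The 6 fibroblast markers did not share its direction, with 3 means above 0 and 3 below, and *DCN* was above 0 on every array at 0.42 ± 0.50. The blood marker *ALAS2* was not well above background in any channel. The part of these cell types in the differences described above was not tested.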

How the data were processed

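Two-colour Agilent bovine arrays were used. Per the file headers, the deposited files hold scanner intensity values per spot in both channels, background-subtracted and dye-normalized by the Agilent software in the processed columns, and a log10 ratio of red (Cy5) over green (Cy3). The authors' series table holds the same ratios and was used as an alternative. Median spot intensities were corrected against the local background (normexp, offset 50) and converted to log2 ratios by loess within each array, with control spots at weight 0, in limma 3.58.1 under R 4.3.3. Outlier spots were left out and spots of 1 probe averaged. A probe was tested when 1 channel was well above background on all 4 arrays and at least 3 ratios were left, which kept 32608 of 43653 probes. The mean ratio of a probe was tested against 0, two-sided, by lmFit and eBayes with Benjamini-Hochberg adjustment over all these probes.

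Genes were named by matching 23492 probes by accession to a RefSeq gene table. Each gene is represented by its tested probe of highest mean signal. The members and gene lists were chosen with earlier results of these data known, so a pattern seen before is no independent support. Values per array are given for genes with a called probe, the 3 of smallest p in each role, the ATG8 family, *BNIP3*, *BNIP3L*, *FUNDC1* and *PINK1*. *PIK3C3*, *SQSTM1*, *ATG4D*, *TRIM63* and *FBXO32* were added to these after their values were seen. Replicates are separate arrays of different bulls, and their number limits the precision, with a median 95% half-width of 0.26 on the log2 scale. The fit was tested on simulated data. Alternatives changed the background correction, scaling, filter, prior, test, probe rule and arrays. Probe, promoter and protein sequences were not used here, so cross-hybridization between related genes was not checked, and a planned look at promoter motifs and protein identity was not run.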

Additional observations from a re-analysis of the deposited data

Results flagged for a closer look

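Of the 41 genes, 1 had an array that stood apart from the other 3 by Dixon's test at the 95% level, which chance gives in about 1 of 20 groups. *BECN1*, the gene of the regulatory subunit Beclin 1, had a log2 ratio of 0.0155 on array 1 and of 0.21 to 0.25 on the others.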

How the results depend on the processing

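With 1 array left out the 4 genes called could not change direction, as each had 1 sign on all 4 arrays. They kept their direction under the other alternatives too, except *OPTN* under median centring (0.24). That setting called 29 genes and 61 probes, moved the median over the genes to 0.68 and turned 14 of the 41 genes to positive, among the genes named by rule *OPTN*, *CALCOCO1* (0.57), *FUNDC1* (0.58) and *VMP1* (0.12). The mean over probes turned 8 of the 41 genes, 5 to positive and 3 to negative, among the genes named by rule *CALCOCO1* (0.23). Leaving out array 1, 2, 3 or 4 turned 4, 3, 2 and 3 of the 41 genes. Among the genes named by rule, these fits gave −0.134 to 0.0247 for *CALCOCO1*, positive without array 1 or 3, and −0.0104 to 0.214 for *MAP1LC3A*, negative without array 4. The call of *OPTN* was lost under plain background subtraction, the scanner's processed signals, the series table, an intensity-dependent prior and a separate-channel fit. The methods' t-test called 0 genes and 0 probes after Benjamini-Hochberg adjustment (10 genes and 28 probes at an unadjusted p under 0.05), and 4 genes and 10 probes at the threshold of the methods, which 11.3% of all genes and 8.85% of all probes passed. The separate-channel fit called 9 probes, with 9.85% of all probes called. Leaving out 1 array gave 0 to 1 genes and 0 to 1 probes called, and medians of 0.02 to 0.11. Over these 4 fits the adjusted p (limma) was 0.0399 to 0.0747 for *ATG4A*, 0.0512 to 0.109 for *BNIP3*, 0.0609 to 0.113 for *MAP1LC3B* and 0.0840 to 0.119 for *OPTN*. Each ratio sets the bulls of 1 array against each other, so the reported fit is itself the paired one, and the separate-channel fit is the other form.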
